A study of Schmidtea mediterranea with 60 samples.

Results

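The transcript described here is agat-1 (dd_Smed_v6_920_0_1), a marker of late epidermal progenitors in the planarian Schmidtea mediterranea, a flatworm known for regrowing lost body parts. It was chosen by its transcript ID, which is 1 of the 28742 rows of the count table, and it was followed over all 60 libraries. The pairing of this ID with the name agat-1 was taken as given and was not checked against a sequence. The tested libraries carry the label bmp4 RNAi (bmp4-labelled libraries), and at each time they are set against control RNAi libraries, with 5 replicates in each of the 12 groups. Sampling was at the cut (0) and then 3, 6, 16 and 24 hours later and, last, at 48 h, all given as hours post amputation (hpa). Worms were of the clonal asexual CIW4 strain, with no allele altered, and were given double-stranded RNA in 4 meals of liver. The RNA matched bmp4 in the tested animals and unc-22, a C. elegans gene, in control animals. All animals of both conditions were cut 7 days after the last feeding, and polyadenylated RNA was taken from the anterior-facing wounds of post-pharyngeal (tail) pieces. A replicate was a pool of 5 wounds, and nothing in the labels says that the pools came from separate cultures, so p-values measure the spread between these pools.

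In planarians the epidermis is renewed from neoblasts, the dividing stem cells of the body. A subset of neoblasts commits to the epidermal lineage, stops dividing and passes through an early progenitor stage and then a late one, during which the cells migrate outward beneath the epidermis before they join it. Transcripts of the agat family mark the late stage. The enzyme they are named for, arginine:glycine amidinotransferase, makes guanidinoacetate, a precursor of creatine in vertebrates. The bmp4 gene encodes a secreted signal that patterns the dorsal-ventral axis. In RNA from whole pieces, fewer agat-1+ cells, less agat-1 RNA per cell and more RNA from other cells cannot be told apart.

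Total counts ranged from 5.92 M to 23.9 M per library (M, mega) with a median of 17.3 M, and the smallest belonged to replicate 4 of the bmp4-labelled group at 3 hpa. The agat-1 transcript had 2354 to 16730 counts in a library, a counting error of 0.773% to 2.06%. The sources used here name no molecular identifiers for these libraries, so these errors cover counting only. The bmp4 transcript (dd_Smed_v6_17402_0_1), the target of the RNAi, did not follow the labels at every time. At 6 and 48 hpa all 5 bmp4-labelled libraries were below every control library, whereas at 0 hpa all 5 were above every control library, at 5.64 to 8.80 CPM against 2.66 to 3.25 CPM in control libraries. CPM are counts per M counts of the library, scaled with TMM factors (a correction for differences in RNA composition between libraries). At 3 hpa 4 of 5 were above and 1 below every control library, and at 16 and 24 hpa 2 were above and 2 below. With 4 to 347 counts per library, the bmp4 transcript differed past the threshold (an adjusted p of 0.05 in edgeR, a count model fitted across all transcripts) at 48 hpa (log2 fold change -1.74, SE 0.544, edgeR adjusted p = 0.00940) and not at 0 hpa (1.25, SE 0.514, edgeR adjusted p = 0.123). The bmp4 transcript did not pass this threshold at 3, 6, 16 or 24 hpa either. Its log2 fold change at 6 hpa, despite the full separation of libraries, was -1.35 (edgeR adjusted p = 0.152). The values for 3, 16 and 24 hpa were 1.53, 0.35 and 0.82. The condition is therefore called by its label below, and every direction given for agat-1 rests on those labels.

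The first comparison was how agat-1 differed between RNAi conditions at each time. The transcript was lower in the bmp4-labelled libraries at all 6 times, with no overlap between the conditions at any time. It stood at 51.8% to 56.6% of the control level at 0 to 24 hpa and at 73.9% at 48 hpa. The difference was present at 0 hpa, in tissue taken at the time of the cut.

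At 0 hpa agat-1 had 244, 276, 245, 238 and 267 CPM in the bmp4-labelled libraries, against 471, 480.1, 411, 532 and 560.4 CPM in control libraries. The highest bmp4-labelled library was 134 CPM below the lowest control library. The log2 fold change was -0.95 (SE 0.0833, 95% interval -1.12 to -0.78, edgeR adjusted p = 5.26e-14), and 11.4% of the 18510 transcripts tested were called in that comparison. At 3 hpa agat-1 had 472, 349.5, 411, 393 and 444 CPM in the bmp4-labelled libraries, against 706, 686, 807, 737 and 721 CPM in control libraries. All 10 libraries stood above every library of their own condition at 0 hpa, and the gap between the conditions was wider in CPM. The log2 fold change was -0.82 (SE 0.0831, edgeR adjusted p = 1.05e-11), where 11.3% of transcripts were called.

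At 6 hpa agat-1 had 345, 452, 312, 432 and 419 CPM in the bmp4-labelled libraries, against 725, 722, 727, 734 and 694 CPM in control libraries. Control libraries lay close together at this time, and the bmp4-labelled libraries were spread over a wider range, with replicates 1 and 3 low. The log2 fold change was -0.88 (SE 0.0831, edgeR adjusted p = 8.45e-13), where 17.1% of transcripts were called. At 16 hpa agat-1 had 407, 383, 381, 417 and 366 CPM in the bmp4-labelled libraries, against 759, 739.9, 730.4, 733 and 739 CPM in control libraries. The gap between the nearest libraries of the conditions, 313 CPM, was the widest of the 6 times. The log2 fold change was -0.92 (SE 0.0832, edgeR adjusted p = 1.78e-13), where 19.2% of transcripts were called.

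At 24 hpa agat-1 had 432, 358, 389, 444 and 488 CPM in the bmp4-labelled libraries, against 771, 738, 806, 754 and 726 CPM in control libraries. Both conditions had their highest mean at this time. The log2 fold change was -0.85 (SE 0.0830, edgeR adjusted p = 3.65e-12), where 16.7% of transcripts were called. At 48 hpa agat-1 had 285, 402, 325, 338 and 301 CPM in the bmp4-labelled libraries, against 461, 421, 454, 411 and 488 CPM in control libraries. The conditions came close, with 8.51 CPM between replicate 2 of the bmp4-labelled libraries and the lowest control library. The log2 fold change was -0.44 (SE 0.0827, 95% interval -0.60 to -0.27, edgeR adjusted p = 1.89e-05), where 35.9% of transcripts were called. Averaged over the 6 times it was -0.81 (SE 0.0339, edgeR adjusted p = 1.66e-29), where 43.5% of transcripts were called. A call of lower at all 6 times was made for agat-1 and for 206 transcripts in all, 1.11% of those tested. In exact permutation tests of log2(CPM + 1), two-sided with 5 libraries against 5, p was 0.00794 at each time, the smallest that this design allows, and adjusted over the 6 times it was 0.00794.

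**Figure D1:**
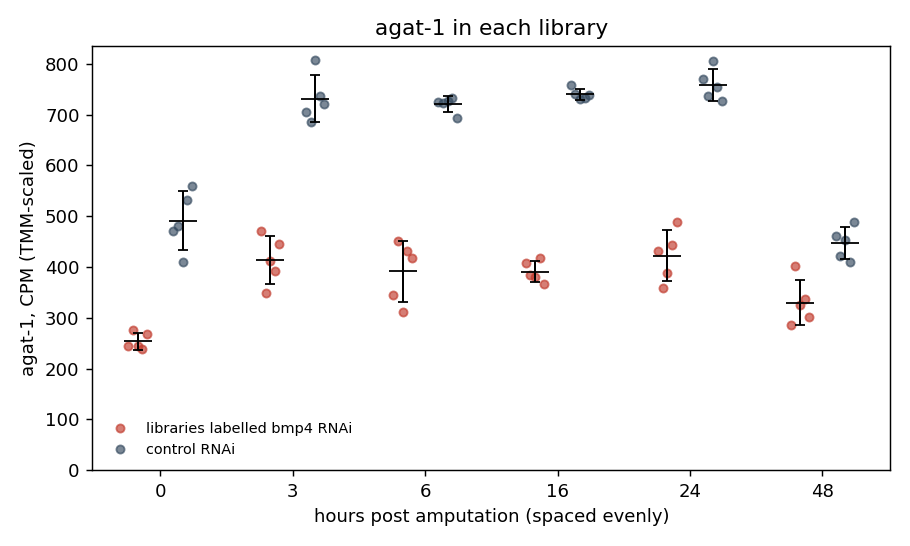
agat-1 in CPM in each of the 60 libraries at 0 to 48 hpa. Red points on the left of each pair are the bmp4-labelled libraries and dark points on the right are control libraries, with bars for the mean and SD (n = 5). Red points sit below all dark points of the same time, by 313 CPM at 16 hpa and by 8.51 CPM at 48 hpa.

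The next comparison was the change after amputation within each condition, with 0 hpa libraries shared by all changes of a condition. The agat-1 transcript rose in both conditions between 0 and 3 hpa, and its levels at 6, 16 and 24 hpa were not separated from the 3 hpa level in exact permutation tests in either condition. At 48 hpa it was still above its 0 hpa level in the bmp4-labelled libraries, and was not called different from its 0 hpa level in control libraries.

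In the bmp4-labelled libraries the mean was 254 ± 16.7 CPM at 0 hpa, then 414 ± 47.1 at 3 hpa, 391.8 ± 60.2 by 6 hpa, 391 ± 20.9 at 16 hpa, then 422 ± 50.4 by 24 hpa and 330.2 ± 45.2 CPM at 48 hpa (SD, n = 5 each). In control libraries it was 491 ± 58.0 CPM at 0 hpa, then 731 ± 46.2 at 3 hpa, 720.3 ± 15.5 by 6 hpa, 740.3 ± 11.0 at 16 hpa, then 759 ± 31.3 by 24 hpa and 447 ± 31.2 CPM at 48 hpa (SD, n = 5 each). Control libraries gained 229 to 268 CPM at 3 to 24 hpa, and the bmp4-labelled libraries gained 137 to 168 CPM.

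As a ratio to 0 hpa, the level at 3 to 24 hpa was 1.54- to 1.66-fold in bmp4-labelled libraries and 1.47- to 1.55-fold in control libraries. At 3 hpa agat-1 was 1.63-fold its 0 hpa level in the bmp4-labelled libraries (log2 0.70, SE 0.0831, edgeR adjusted p = 2.99e-09, 10.5% of transcripts called) and 1.49-fold in control libraries (0.57, SE 0.0827, edgeR adjusted p = 5.16e-07, 8.81% called). At 6 hpa it was 1.54-fold in the bmp4-labelled libraries (0.62, edgeR adjusted p = 4.30e-08, 13.1% called) and 1.47-fold in control libraries (0.55, edgeR adjusted p = 2.87e-07, 25.1% called). The rise was thus in place by the first time measured after the cut, in both conditions. At 16 hpa it was 1.54-fold in the bmp4-labelled libraries (0.62, edgeR adjusted p = 1.83e-08, 28.2% called) and 1.51-fold in control libraries (0.59, edgeR adjusted p = 3.99e-08, 32.4% called). At 24 hpa it was 1.66-fold in the bmp4-labelled libraries (0.73, edgeR adjusted p = 2.98e-10, 32.6% called) and 1.55-fold in control libraries (0.63, edgeR adjusted p = 7.47e-09, 33.6% called). At 48 hpa the bmp4-labelled libraries were at 1.30-fold (0.38, SE 0.0828, edgeR adjusted p = 0.000406, 25.6% called), whereas control libraries were at 91.0% of their 0 hpa level (-0.14, SE 0.0825, 95% interval -0.30 to 0.03, edgeR adjusted p = 0.192, 41.1% called).

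Whether the change itself differed between conditions was tested as an interaction, the change in the bmp4-labelled libraries minus that in control libraries. At 3 hpa this difference was 0.13 on the log2 scale (95% interval -0.11 to 0.36, edgeR adjusted p = 0.9998, 0.0378% of transcripts called), and at 6 hpa it was 0.07 (-0.16 to 0.30, edgeR adjusted p = 0.935, 0.313% called). At 16 hpa it was 0.03 (-0.20 to 0.26, edgeR adjusted p = 0.953, 0.767% called), and at 24 hpa it was 0.10 (-0.13 to 0.34, edgeR adjusted p = 0.788, 1.91% called). None of these 4 passed the threshold, and their intervals leave room for a change that is up to 0.36 larger on the log2 scale in the bmp4-labelled libraries. At 48 hpa the difference was 0.51 (SE 0.117, 95% interval 0.28 to 0.75, edgeR adjusted p = 0.000907, 18.0% called). Relative to 0 hpa, agat-1 was thus 1.43-fold higher in the bmp4-labelled libraries than the control change would give, and its deficit was smaller at 48 hpa than at 0 hpa. In CPM the difference of the means, bmp4-labelled minus control, was -117 at 48 hpa and -237 at 0 hpa.

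**Figure D2:**
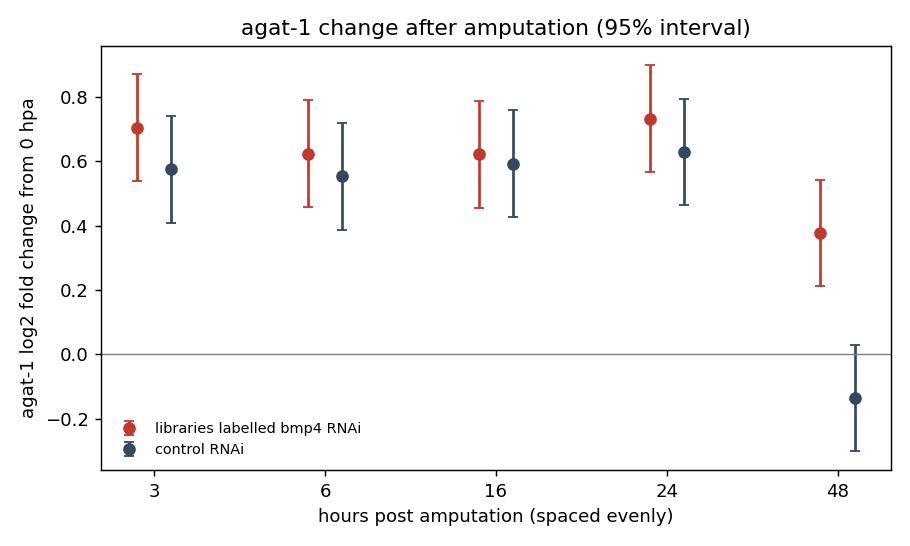
Change of agat-1 from 0 hpa on the log2 scale at 3 to 48 hpa, with 95% intervals from the edgeR fit. The bmp4-labelled libraries (red, left) and control libraries (dark, right) lie between 0.55 and 0.73 at 3 to 24 hpa, and part at 48 hpa at 0.38 and -0.14.

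The 12 group levels spanned 2.99-fold. The order began with control libraries at 24, 16, 3 and 6 hpa, followed by control libraries at 0 and 48 hpa, then the bmp4-labelled libraries at 24, 3, 6, 16, 48 and 0 hpa. Every control mean was above every mean of the bmp4-labelled libraries, whatever the time. Single libraries overlapped across times: 20 of 30 bmp4-labelled libraries were below the lowest control library of any time (411 CPM), and 22 of 30 control libraries were above the highest bmp4-labelled library (488 CPM).

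Among the 66 pairs of groups, 48 differed in exact permutation tests with p adjusted over the 66. Of the 11 pairs of neighbours in the order, 3 passed the threshold. These were control libraries at 6 hpa over those at 0 hpa (exact permutation p = 0.00794, adjusted p = 0.0128), the bmp4-labelled libraries at 16 hpa over those at 48 hpa (exact permutation p = 0.0317, adjusted p = 0.0437), and those at 48 hpa over those at 0 hpa (exact permutation p = 0.00794, adjusted p = 0.0128). Libraries of the pair at 16 and 48 hpa overlapped, at 366 to 417 CPM and 285 to 402 CPM, and those of the other two pairs did not. None of the 6 pairs among the 4 levels of bmp4-labelled libraries at 3 to 24 hpa passed the threshold. Among control libraries at those times, the levels at 16 and 24 hpa were above that at 6 hpa. The log2 differences (6 hpa minus the later time) were -0.04 and -0.07 (exact permutation p = 0.0238 and adjusted p = 0.0334 for each). The 6 hpa group held 1 library at 694 CPM, with the others at 722 to 734 CPM, and these pairs were not tested without it. The other 4 pairs of control libraries at those times did not pass the threshold. Where the conditions meet in the order, the bmp4-labelled libraries at 24 hpa, with 422 ± 50.4 CPM, and control libraries at 48 hpa, with 447 ± 31.2 CPM, did not pass the threshold (exact permutation p = 0.373, adjusted p = 0.417, n = 5 each). At 24 hpa the bmp4-labelled libraries were also not separated from control libraries at 0 hpa (log2 difference -0.22, exact permutation p = 0.0873, adjusted p = 0.113).

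The coefficient of variation of agat-1 within a group was 1.48% to 15.4% with a median of 6.78%, lowest in control libraries at 16 hpa and highest in the bmp4-labelled libraries at 6 hpa. The biological coefficient of variation fitted by edgeR was 9.60% for agat-1 and 12.5% as the common value, and 33.3% of tested transcripts had a lower one than agat-1.

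The only other transcript of the epidermal lineage whose ID the study's text gives is equinox (dd_Smed_v6_20318_0_1). This transcript encodes a protein predicted to be secreted and is found in the wound epidermis. It was compared with agat-1 to see whether both moved alike. Like agat-1 it was lower in the bmp4-labelled libraries at all 6 times, and by more. At 0 hpa equinox had 0.880 to 1.46 CPM in the bmp4-labelled libraries and 3.76 to 5.08 CPM in control libraries (log2 fold change -1.96, SE 0.173, edgeR adjusted p = 5.65e-14). At 48 hpa it had 0.623 to 1.29 CPM in the bmp4-labelled libraries and 6.16 to 7.94 CPM in control libraries (-2.70, SE 0.166, edgeR adjusted p = 1.58e-20). In the bmp4-labelled libraries these levels rested on few equinox counts, 19 to 26 per library at 0 hpa and 12 to 30 at 48 hpa. The 2 transcripts moved apart at 48 hpa. The interaction of equinox was -0.74 (SE 0.249, edgeR adjusted p = 0.0289), against 0.51 for agat-1, so the deficit of equinox widened between 0 and 48 hpa while that of agat-1 narrowed.

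**Figure D3:**
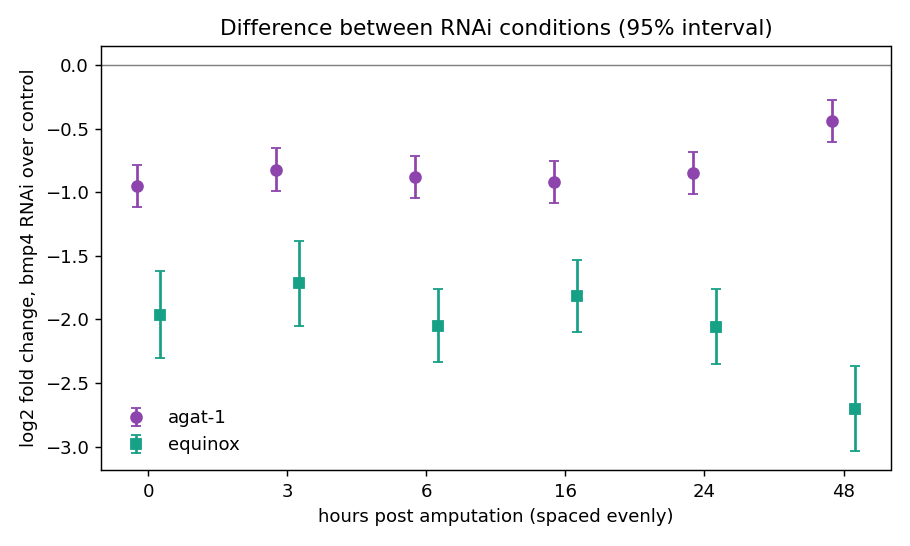
Log2 fold change, bmp4-labelled libraries over control libraries, with 95% intervals from the edgeR fit, for agat-1 (circles, left) and equinox (squares, right) at 0 to 48 hpa. The agat-1 values lie between -0.95 and -0.82 to 24 hpa and at -0.44 at 48 hpa, and those of equinox between -2.06 and -1.71 to 24 hpa and at -2.70 at 48 hpa.

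The ratio of agat-1 to equinox counts within a library does not depend on how libraries are scaled. Its size also reflects transcript length, so it is compared only between conditions. The log2 ratio was higher in the bmp4-labelled libraries at all 6 times, with no overlap. At 0 hpa it was 7.69 ± 0.32 in the bmp4-labelled libraries and 6.68 ± 0.11 in control libraries (SD, n = 5 each), a difference of 1.005. At 3, 6, 16 and 24 hpa the differences were 0.93, 1.22, 0.88 and 1.23 on the log2 scale. At 48 hpa it was 8.26 ± 0.37 in the bmp4-labelled libraries and 5.97 ± 0.14 in control libraries (SD, n = 5 each), a difference of 2.29, or 4.89-fold. Exact permutation p was 0.00794 at each time, the smallest possible, and 0.00794 adjusted over the 6 times. A ratio shows unequal change of the pair and not which of the pair changed.

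**Figure D4:**
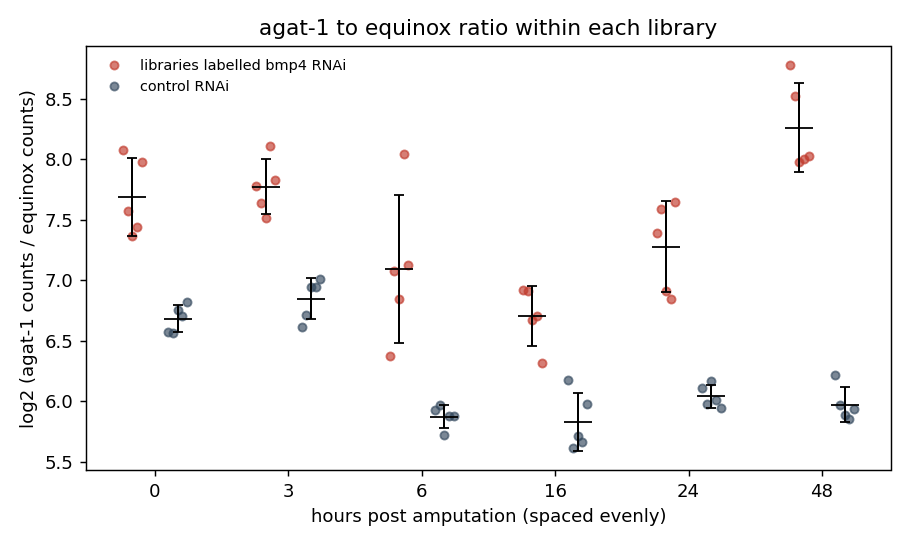
Log2 ratio of agat-1 to equinox counts in each library, 0.5 added to each count, with bars for the mean and SD (n = 5). Libraries labelled bmp4 RNAi (red, left) lie above control libraries (dark, right) at every time, with the difference at 2.29 at 48 hpa and between 0.88 and 1.23 before.

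The transcripts whose pattern was most like that of agat-1 were sought in 2 ways. Over the 12 group means of log2 CPM, the highest Pearson's r belonged to dd_Smed_v6_899_0_1 (r = 0.986) and dd_Smed_v6_12027_0_1 (r = 0.961). Of the tested transcripts 38 had r above 0.9, and equinox had r = 0.907 while bmp4 had r = -0.064. These points share the RNAi conditions and times, so r describes a likeness of pattern only. No name or function was paired with either ID in the sources used here.

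The ID dd_Smed_v6_899_0_1 had 290.5 ± 18.2 CPM in the bmp4-labelled libraries and 544 ± 34.8 CPM in control libraries at 0 hpa, and 341 ± 47.3 CPM and 499 ± 18.8 CPM in these conditions at 48 hpa (SD, n = 5 each). Its log2 fold change between conditions was -0.90 at 0 hpa and -0.55 by 48 hpa, and its interaction at 48 hpa was 0.36. For dd_Smed_v6_12027_0_1 the log2 fold change was -0.65 at 0 hpa and -0.42 by 48 hpa, and the interaction at 48 hpa was 0.23. Both IDs were chosen for their likeness to agat-1 over these same group means, so these values describe them and carry no test.

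Likeness was also sought between replicates, with each library taken as its deviation from its group mean, which removes condition and time. Over the 60 libraries the highest r belonged to dd_Smed_v6_2969_0_1 (r = 0.880) and dd_Smed_v6_754_0_1 (r = 0.878). This likeness between replicates did not carry over to the groups for dd_Smed_v6_754_0_1, whose r over group means was 0.327, and whose log2 fold change between conditions was -0.06 at 0 hpa (edgeR adjusted p = 0.806). By 48 hpa it was called higher in bmp4-labelled libraries (0.26, SE 0.0894, edgeR adjusted p = 0.0186). Its interaction at 48 hpa, 0.32, was not called (SE 0.126, edgeR adjusted p = 0.0736). For dd_Smed_v6_2969_0_1 the log2 fold change between conditions in the edgeR fit was -0.53 at 0 hpa (adjusted p = 0.00165), and it was 0.07 by 48 hpa (adjusted p = 0.685), with an interaction of 0.60 at 48 hpa (edgeR adjusted p = 0.0106). Over group means dd_Smed_v6_2969_0_1 had r = 0.811 with agat-1. In these deviations equinox had r = 0.166 with agat-1 and bmp4 had r = 0.060. Of the IDs found over group means, dd_Smed_v6_899_0_1 had r = 0.771 in the deviations and dd_Smed_v6_12027_0_1 had r = 0.080.

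The deviations of agat-1 ran with a difference between replicates that many transcripts shared. The leading principal component of within-group deviations, computed without agat-1, held 12.5% of the within-group variance and had r = -0.811 with agat-1 over the 60 libraries. Of the tested transcripts, 923 had r above 0.7 with agat-1 in these deviations. The share of a library on the 8 transcripts that the methods of the study name as mitochondrial, 0.195% to 0.711%, had r = 0.468 with agat-1. Replicate 3 of the bmp4-labelled libraries at 6 hpa, which had the lowest agat-1 of its group (312 CPM), lay farthest out on the component. With the component itself as a covariate, as planned, the RNAi difference was -0.92 at 16 hpa and -0.44 at 48 hpa. The component averages out within each group by construction, so this fit could hardly move a difference between groups. The SE at 16 hpa was 0.0504 in this fit and 0.0832 without the covariate. With the score of each library on the component as a covariate, the difference was -0.77 at 16 hpa and -0.52 at 48 hpa. The interaction at 48 hpa was then 0.38, and all were still called by edgeR. Mean scores in bmp4-labelled and control libraries were 14.0 and -7.78 at 16 hpa, and -4.94 and 7.25 at 48 hpa. The score can therefore take up part of the RNAi difference. The score covariate was added after the data had been seen, and what the component stands for was not tested.

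**Figure D5:**
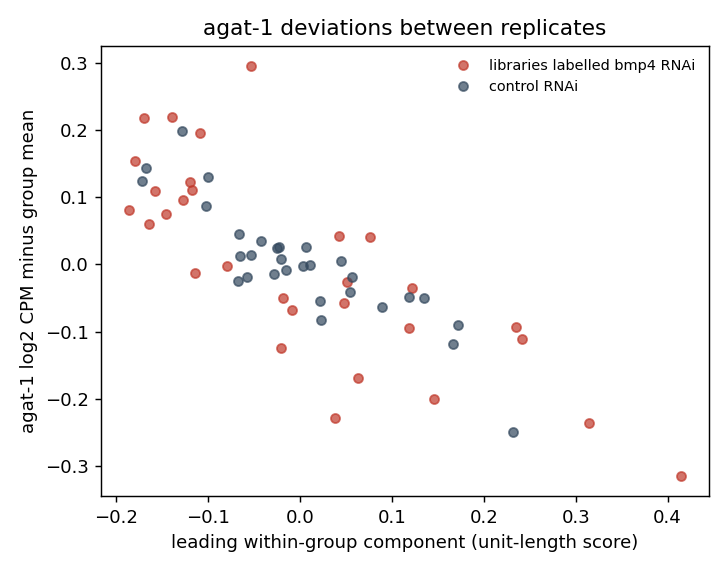
Deviation of agat-1 log2 CPM from its group mean against the leading within-group component (a unitless score) for 60 libraries, red for those labelled bmp4 RNAi and dark for control libraries. Points fall from upper left to lower right (r = -0.811), and the point farthest right is replicate 3 of the bmp4-labelled libraries at 6 hpa.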

How the data were processed

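The authors trimmed reads with cutadapt (version 1.8), aligned them with Bowtie (version 1.2, in the submitters' processing notes), keeping each best alignment, against the dd_Smed_v6 transcriptome, counted reads per contig with coverageBed and summed contigs of an isotig. The deposited values are raw counts per transcript in 60 columns, all mapped to a sample (0 columns with none). Whether counting used the strand, and how reads with several equal matches were counted, the sources used here do not say. Copies of agat-1 or antisense transcripts could therefore share its counts.

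Transcripts passing filterByExpr (18510 of 28742, holding 99.91% of counts) were fitted over all 60 libraries with edgeR 4.0.16 in R 4.3.3: TMM factors (0.926 to 1.12), 1 mean per group, robust quasi-likelihood tests, and Benjamini-Hochberg adjustment over all tested transcripts in each comparison, called at 0.05. The study itself tested pairs of groups with DESeq. CPM, exact permutation tests (5 against 5, pseudocount 1 CPM) and ratios (0.5 added to each count) were computed from the same counts in Python. No 2 libraries of a group were alike within counting error (120 pairs, smallest chi-square per degree of freedom 3.39). The edgeR step was tested on simulated data. Besides agat-1, the transcripts named were bmp4, equinox, and the 2 IDs with the highest Pearson's r over group means and the 2 over within-group deviations. The study's supplementary annotation was held here only in part, covered none of the transcripts named, and gave at least some IDs different gene names in different sheets. It was not used, so no list of pathway genes or of markers of other cell types was formed. The transcript, the lists and the tests were chosen with earlier results of these data known. Alternatives covered normalization, tool (DESeq2 1.42.0), filters, samples, covariates, pseudocounts and single libraries.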

Additional observations from a re-analysis of the deposited data

Results flagged for a closer look

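Among the 24 sets of 5 libraries examined (agat-1 CPM and the log2 ratio of agat-1 to equinox in 12 groups), 1 held a library far from the others. In control libraries at 6 hpa, agat-1 had 694 CPM in replicate 5, while the other 4 lay between 722 and 734 CPM. Chance alone singles out about 1 in 20 such sets. The library was still above all bmp4-labelled libraries of that time, the highest of which had 452 CPM.

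The change of agat-1 from 0 to 48 hpa differed between the conditions by 0.51 on the log2 scale (edgeR adjusted p = 0.000907), higher in the bmp4-labelled libraries. It was 0.43 to 0.57 when each of the 20 libraries involved was left out in turn, with adjusted p of at most 0.0055 in edgeR.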

How the results depend on the processing

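There were 246 values under other settings and 380 with 1 library left out. All but 6 kept their direction and, where tested again, their side of the threshold. The 246 include fits with the leading within-group component as a covariate, which could hardly move a difference between groups. Ratios of agat-1 to equinox with 1 library left out were not tested again, and each moved by less than the larger SD of the compared groups. The number of called pairs among the 66, also counted as kept, was 47 with library totals alone against 48. The change of agat-1 in control libraries from 0 to 48 hpa (-0.14) was called with the leading within-group component as a covariate (-0.13, edgeR adjusted p = 0.0251). With library totals alone it was 0.0053, on the other side of 0 and not called. The interaction at 16 hpa (0.03) ranged from -0.030 to 0.079 with 1 library left out and was never called. The cause was not tested.

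Replicate numbers did not pair bmp4-labelled with control libraries of the same time. Of 30 same-numbered pairs, 4 had r over 0.1 between their deviations (median 0.0046, against -0.0051 in other pairs). Libraries with the same number at different times were not compared in this way. With the number as a replicate block, the RNAi difference was -0.95 at 0 hpa and -0.44 at 48 hpa, the interaction at 48 hpa was 0.51, and no call for agat-1 changed. Without the smallest library, no call changed. Depth was not the limit for agat-1, whose counting error was at most 2.06%. In a library bmp4 had as few as 4 counts and equinox as few as 8. The groups of 5 limit exact tests to p = 0.00794.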
